A study of Mus musculus with 6 samples.

Results

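The chemokine genes are the small secreted chemoattractant proteins of the CC, CXC and CX3C families. They were taken as every probe set with 1 gene whose symbol is a Ccl, Cxcl or Cx3cl1 name, or Ppbp or Pf4, keeping the probe set with the highest mean where a gene had several. This gave 35 genes of the 22180 measured. They were compared between mouse embryonic fibroblasts (MEFs) from wild type mice (genotype Pax7+/+) and from mice without functional Pax7 (genotype Pax7-/-), a paired-box transcription factor. Each genotype had 3 arrays of biotin-labelled total RNA, named biological replicates 1 to 3. Both genotypes shared the strain F1 (C57Bl6N x 129Sv), standard medium with serum and antibiotics, and collection at confluence, and no treatment is named. The labels do not say how the Pax7 allele was disrupted, how old the embryos were, or which embryos or cultures the replicate numbers stand for, so p-values measure the spread between these samples.

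Chemokines bind G protein-coupled receptors on leukocytes and direct their movement along gradients, held in place by glycosaminoglycans of the matrix. The position of the first cysteines names the families. CXC members with the tripeptide glutamate-leucine-arginine (ELR) before the cysteines act on Cxcr2 and draw neutrophils, members induced by interferon act on Cxcr3 and draw T cells, and many CC members draw monocytes or eosinophils. Fibroblasts are a known source of Cxcl12, Ccl2 and, after interleukin-1 or TNF, of the ELR group through NF-kB.

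Values are log2 signals as deposited, and differences are Pax7-/- minus Pax7+/+. The arrays of replicate number 3 stood apart in both genotypes. Their correlation was 0.988, that among the other 4 arrays 0.982 to 0.987, and that between the sets 0.789 to 0.824. The 1390 olfactory and vomeronasal receptor genes served as a background set, and the 95th percentile of their signals was taken as the background level of each array. It was 5.34 to 5.44 on replicates 1 and 2 and 4.63 to 4.65 on replicate 3. A gene counts as above background where its mean in at least 1 genotype exceeded the mean level there. All 13 fibroblast markers were above background, and 5 of 12 markers of pluripotent cells were, although the samples carry ESCs, embryonic stem cells, as their cell type. Pax7 itself had a signal of 4.88 to 6.14 in Pax7+/+ and 5.05 to 6.17 in Pax7-/-, and as the sources used here do not place its probe set relative to the disrupted part, it does not check the genotype.

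Of the 35 chemokine genes, 21 were above background (60.0%, against 55.6% of all genes), and 13 of these were so on all 6 arrays. No chemokine gene passed an adjusted p of 0.05 in limma's test of genotype, nor when the replicate number was added as a block (0 of 35 in each fit, and 0 with an unadjusted p under 0.05 without the block against 6 with it). Over all genes the first fit called 0% and the second 0.00902% as higher and 0.0676% as lower. The 6 genes with an unadjusted p under 0.05 in the blocked fit were Ppbp, Cxcl14, Ccl2, Cxcl5, Cxcl15 and Cxcl11, and 6.73% of all genes had such a p. Ppbp was higher in the knockout and nearest to the threshold (blocked limma fit, adjusted p = 0.0578), followed by Cxcl14, which was lower (adjusted p = 0.0908). In the 3 pairs of equal replicate number, 4 of the 21 genes were higher in every pair (Ppbp, Cx3cl1, Ccl9 and Cxcl11) and 7 were lower in every pair (Cxcl14, Ccl7, Ccl2, Cxcl12, Cxcl5, Cxcl15 and Ccl25). Among all genes above background, 14.8% were higher and 15.3% lower in every pair. The median difference of the 21 genes was -0.07, against -0.00 over all genes above background.

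**Figure D1:**
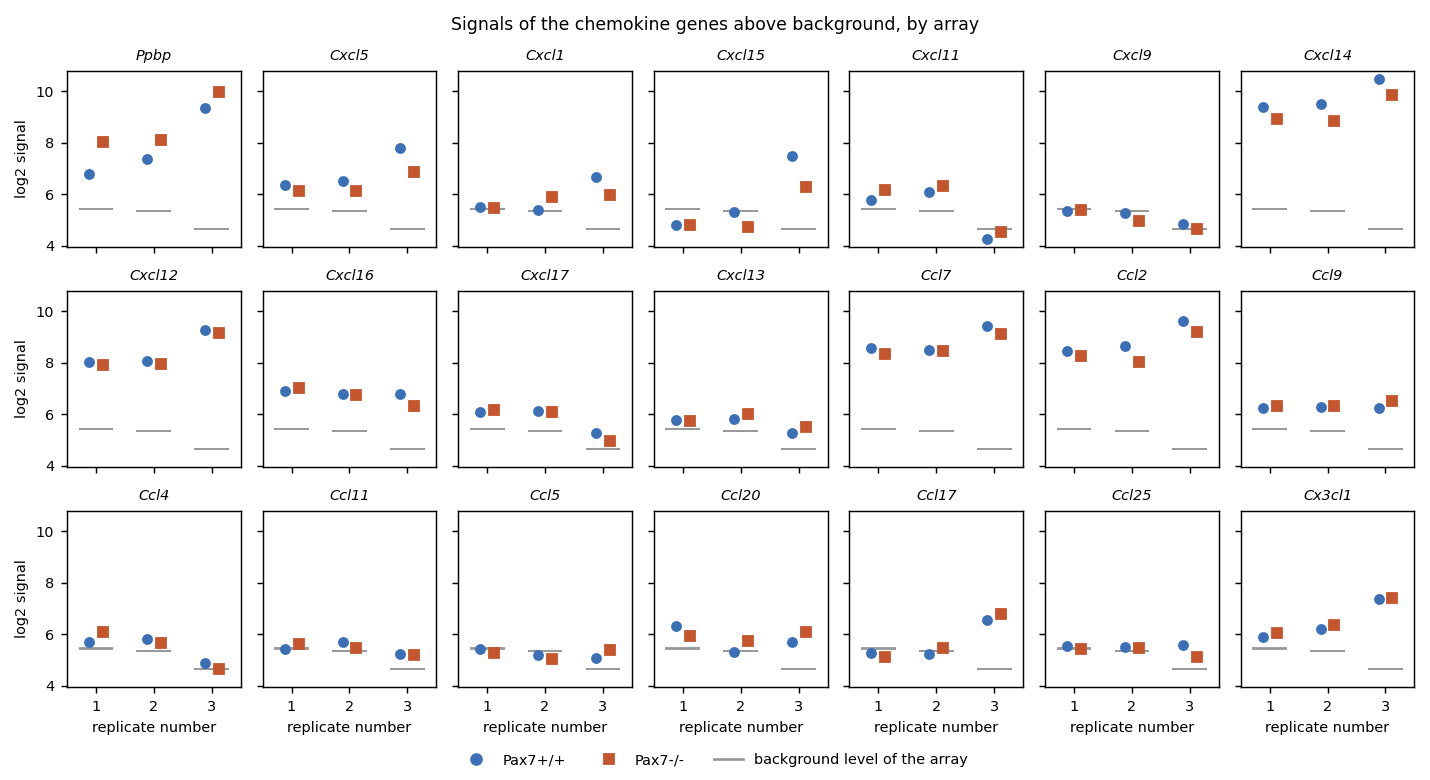
Log2 signal (y axis) of the 21 chemokine genes above background on each array, by replicate number (x axis), for Pax7+/+ (circles) and Pax7-/- (squares). Grey lines mark the background level of each array. Ppbp lies higher in Pax7-/- at each number, Cxcl14 lower, and 10 of the 21 genes stand higher on replicate 3 in both genotypes, where the background level is lower.

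Ppbp, pro-platelet basic protein, is the precursor of an ELR chemokine stored in platelet granules. Its signal was 6.78, 7.36 and 9.34 in Pax7+/+ replicates 1, 2 and 3 and 8.02, 8.10 and 9.97 in Pax7-/-. Wild type replicate 3 lay above knockout replicates 1 and 2, so the genotypes overlapped. The difference was 0.87 (1.83-fold higher), or 1.24, 0.74 and 0.63 in pairs 1, 2 and 3. Its SE was 0.85 with genotype alone, where replicate 3 enters the spread, and 0.12 with the block. Ppbp ranked 21st of 22180 genes by the p of the blocked fit and 3rd among those with a higher knockout signal. Its adjusted p was 0.204 without replicate 2, 0.0159 without replicate 1 and 0.0694 without replicate 3 in blocked limma fits. It passed in 5 of the 9 fits that had a block. Among them were the fit without replicate 1 and that with quantile normalization (difference 0.94, limma adjusted p = 0.0375). The others were added after the data were seen. They tested only genes above background (limma adjusted p = 0.0277), used a variance trend and robust estimation, or used a median shift. In this order the 5 fits called 98, 21, 34, 46 and 26 of all genes they tested, against 17 with the replicate block alone. All these fits share arrays. With replicates 1 and 2 as 1 batch Ppbp did not pass (limma adjusted p = 0.0949).

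The windows of bases before the annotated starts of 4 genes are shown. Ppbp, Cxcl15 and Cxcl14 are the ones with a window in the table among the 6 genes with an unadjusted p under 0.05, the others being Ccl2, Cxcl5 and Cxcl11. Cxcl1 did not pass in any fit (adjusted p = 0.975 with the block in limma), and its window is shown for its kappa B match. The windows are the 250 bases before the start, from RefSeq on build GRCm38.p6, 5′ to 3′ on the strand of the gene. Capitals mark matches, on either strand, to the kappa B consensus bound by NF-kB, to the AP-1 site TGANTCA, or to an interferon element, GAAA repeated after a gap of 2 bases.
Ppbp, chr5:90768268-90768517, plus strand: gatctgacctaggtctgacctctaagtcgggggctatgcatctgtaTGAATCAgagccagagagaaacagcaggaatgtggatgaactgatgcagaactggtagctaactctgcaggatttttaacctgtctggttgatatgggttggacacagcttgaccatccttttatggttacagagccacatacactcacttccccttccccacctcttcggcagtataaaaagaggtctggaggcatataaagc
Cxcl1, chr5:90890995-90891244, plus strand: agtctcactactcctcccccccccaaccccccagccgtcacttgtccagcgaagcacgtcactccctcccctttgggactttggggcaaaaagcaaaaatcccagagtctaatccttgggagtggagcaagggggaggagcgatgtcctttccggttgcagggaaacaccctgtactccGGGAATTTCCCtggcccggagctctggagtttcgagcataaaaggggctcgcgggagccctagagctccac
Cxcl15, chr5:90794284-90794533, plus strand: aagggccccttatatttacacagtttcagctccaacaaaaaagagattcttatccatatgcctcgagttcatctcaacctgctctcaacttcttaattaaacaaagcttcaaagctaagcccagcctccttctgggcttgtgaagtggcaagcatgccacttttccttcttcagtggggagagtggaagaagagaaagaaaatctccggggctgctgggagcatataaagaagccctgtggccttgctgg
Cxcl14, chr13:56296552-56296801, minus strand: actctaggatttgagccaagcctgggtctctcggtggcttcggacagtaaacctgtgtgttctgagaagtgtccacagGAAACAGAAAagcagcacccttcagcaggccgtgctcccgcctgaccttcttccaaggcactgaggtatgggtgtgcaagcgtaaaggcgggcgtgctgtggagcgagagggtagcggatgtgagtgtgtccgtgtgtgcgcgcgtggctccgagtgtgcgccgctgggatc
The Ppbp window held 1 AP-1 match, at -204 to -198 from the start, where the motif TGANTCA fits both strands because its central base may be any letter. The Cxcl1 window held overlapping kappa B matches, at -71 to -62 on the strand of the gene and at -70 to -61 on the other. The Cxcl15 window held no match to any of the 3 motifs, and that of Cxcl14 held 1 interferon element, at -172 to -163. Of the 35 chemokine genes 24 had a window in the table, and 7 of these held a kappa B match (Ccl1, Ccl9, Ccl20, Cxcl1, Cxcl2, Cxcl3 and Cxcl10), 4 an AP-1 match and 2 an interferon element. Of all 32851 windows of this length, 7.25%, 6.75% and 2.98% held these motifs. A match describes letters and not a bound site.

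Besides Ppbp, the ELR group was represented above background by Cxcl5, Cxcl1 and Cxcl15, with a median difference of -0.30 over the 4 genes, while Cxcl2 and Cxcl3 were not above background. Cxcl5, known as LIX in the mouse, had signals of 6.36, 6.51 and 7.81 in Pax7+/+ and 6.12, 6.14 and 6.84 in Pax7-/-. It was lower in each pair, by -0.24, -0.37 and -0.97, but the genotypes overlapped because replicate 3 was high in both (difference -0.53, with an SE of 0.14 and an adjusted p of 0.430 in the blocked limma fit). Without replicate 3 the blocked difference was -0.31, and without replicate 1 it was -0.67 (adjusted p = 0.0433).
Cxcl15, known as lungkine for its place in lung epithelium, was above background only on replicate 3, at 7.49 in Pax7+/+ and 6.27 in Pax7-/-. On replicates 1 and 2 it lay between 4.72 and 5.29 in both genotypes, below the level. Its pairs were -0.02, -0.57 and -1.21, and only pair 3, of 1 array per genotype, was above background. The fitted -0.60 (blocked SE 0.18, limma adjusted p = 0.557) averages pair 3 with pairs at background. Without replicate 1 the difference was -0.89 (limma adjusted p = 0.00566), from pairs 2 and 3, of which pair 2 lies at background. That fit called 0.108% of all genes as higher and 0.334% as lower, against 0.00902% and 0.0676% with all pairs. Without replicate 3 the blocked difference was -0.29.
Cxcl1, the KC chemokine of mouse fibroblasts, had signals of 5.48, 5.38 and 6.65 in Pax7+/+ and 5.47, 5.87 and 5.95 in Pax7-/-. In Pax7+/+ replicates 1 and 2 and Pax7-/- replicate 1 it lay near background, with a smallest margin of 0.04 above the level. Its pairs disagreed in sign, at -0.01, 0.49 and -0.70, and its mean difference of -0.07 lay within their spread. It was 0.24 without replicate 3 and -0.35 without replicate 2 in the blocked fit.

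Cxcl5, Ppbp, Pf4, Cxcl3, Cxcl15, Cxcl1 and Cxcl2 follow each other on chromosome 5 in this order, with 0 other protein-coding genes between neighbours in the RefSeq annotation. Ppbp had a higher signal in the knockout in each pair and its neighbour Cxcl5 a lower one on the same arrays. Neither gene passed with the block in limma (adjusted p of 0.0578 and 0.430), the 2 differences were not tested against each other, and 14.8% and 15.3% of all genes above background were likewise higher or lower in every pair. Pf4, platelet factor 4, on the other side of Ppbp, was at or below background on every array, with a highest signal of 4.56. Cxcl3 was below background on every array too, at 3.00 to 3.43, and its values are not read.
The Ppbp signal was set beside platelet markers. Of 9 platelet and megakaryocyte genes measured, 3 were above background (Gp9, Itga2b and Treml1), and Gp5, Tubb1 and Gata1 were below it on every array. The mean log2 signal of the list ranged from 4.26 to 5.09 over the Pax7+/+ arrays and from 4.19 to 5.08 over the Pax7-/- arrays, with a median difference of -0.03 over all measured members and Gp9, Itga2b and Treml1 at -0.11, -0.04 and -0.03. Of 14 granulocyte and mast cell genes 3 were above background (means of 4.16 to 4.77 and 4.23 to 4.80), with Elane at 0.03, S100a9 at -0.05 and the basophil protease Mcpt8 at 0.73 (SE 0.13 with the block, limma adjusted p = 0.131). Mcpt8 was above the level on only 3 of the arrays, at 6.01 and 7.08 on replicate 3 and at 5.38 in knockout replicate 2. Its pairs were 0.73, 0.38 and 1.07, of which the first lies at background on both arrays and the second on the wild type array, and its part in the Ppbp result was not tested. In these bulk samples fewer cells of a type and less RNA per cell cannot be told apart.

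**Figure D2:**
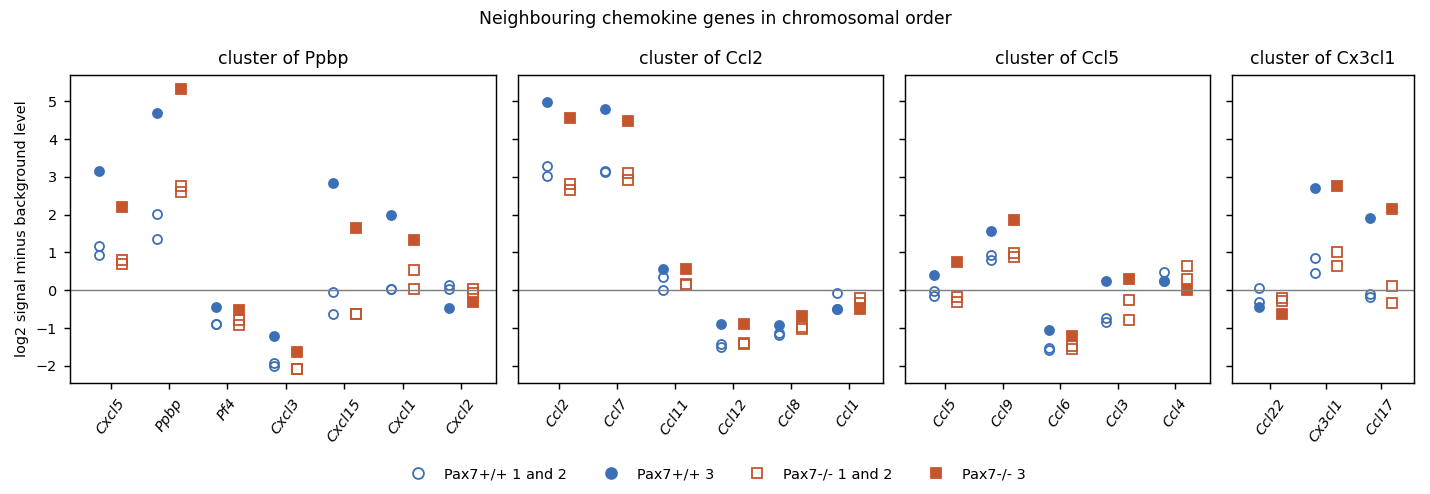
Log2 signal minus the background level of the array (y axis) for chemokine genes in chromosomal order (x axis) in 4 clusters, for Pax7+/+ (circles) and Pax7-/- (squares), with replicate 3 filled. In the first cluster Ppbp is above background on all arrays, Pf4 beside it on none, and Cxcl15 only on replicate 3.

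Among the other CXC genes, Cxcl14 was lower in the knockout. Cxcl14, or BRAK, is made constitutively by fibroblasts and epithelium. Its signal was 9.37, 9.49 and 10.49 in Pax7+/+ and 8.92, 8.84 and 9.84 in Pax7-/-. Each knockout array lay below the wild type array of the same number, by -0.45, -0.65 and -0.65. Knockout replicate 3 lay above wild type replicates 1 and 2, so the genotypes overlapped. The difference was -0.58 (1.50-fold lower, SE 0.43 with genotype alone and 0.09 with the block). It passed in 2 of the 9 blocked limma fits. The fit without replicate 1 (-0.65, limma adjusted p = 0.0238) called 0.108% of all genes as higher and 0.334% as lower. The other, with a variance trend and robust estimation (limma adjusted p = 0.0171), was added after the data were seen. Without replicate 2 Cxcl14 did not pass (limma adjusted p = 0.321).
Cxcl12, or SDF-1, the ligand of Cxcr4 that holds blood progenitors in the marrow, had signals of 8.02, 8.07 and 9.29 in Pax7+/+ and 7.90, 7.96 and 9.15 in Pax7-/-. Its pair differences were small and alike, -0.12, -0.11 and -0.13, with a mean of -0.12 (SE 0.09 with the block, limma adjusted p = 0.853).
Cxcl16, a transmembrane ligand of Cxcr6, lay between 6.31 and 7.03 on the 6 arrays, with pairs of 0.12, -0.04 and -0.49. Cxcl17 and Cxcl13, the B cell attractant, were above background on all arrays at 4.97 to 6.17 and 5.28 to 6.02, with mean differences of -0.08 and 0.13. Their pairs did not share a sign. Without replicate 3 of both genotypes the blocked difference of Cxcl16 was 0.04 and that of Cxcl17 0.02, against -0.13 and -0.08 with it.
Of the interferon-induced ligands of Cxcr3, Cxcl11 had signals of 5.77, 6.08 and 4.24 in Pax7+/+ and 6.15, 6.33 and 4.55 in Pax7-/-, so that it was above background on replicates 1 and 2 and below it on replicate 3 in both genotypes. It was higher in each pair, by 0.38, 0.25 and 0.31 (mean 0.31, SE 0.09 with the block, limma adjusted p = 0.506), but wild type and knockout overlapped and the third pair lies at background. Cxcl9 was near background and above the level only on replicate 3, at 4.86 in Pax7+/+ and 4.65 in Pax7-/-. Its mean exceeded the mean level in Pax7+/+ only. Its pairs were 0.03, -0.31 and -0.20, of which pairs 1 and 2 lie at background (mean -0.16, blocked limma adjusted p = 0.809). Cxcl10 was not above background.

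**Figure D3:**
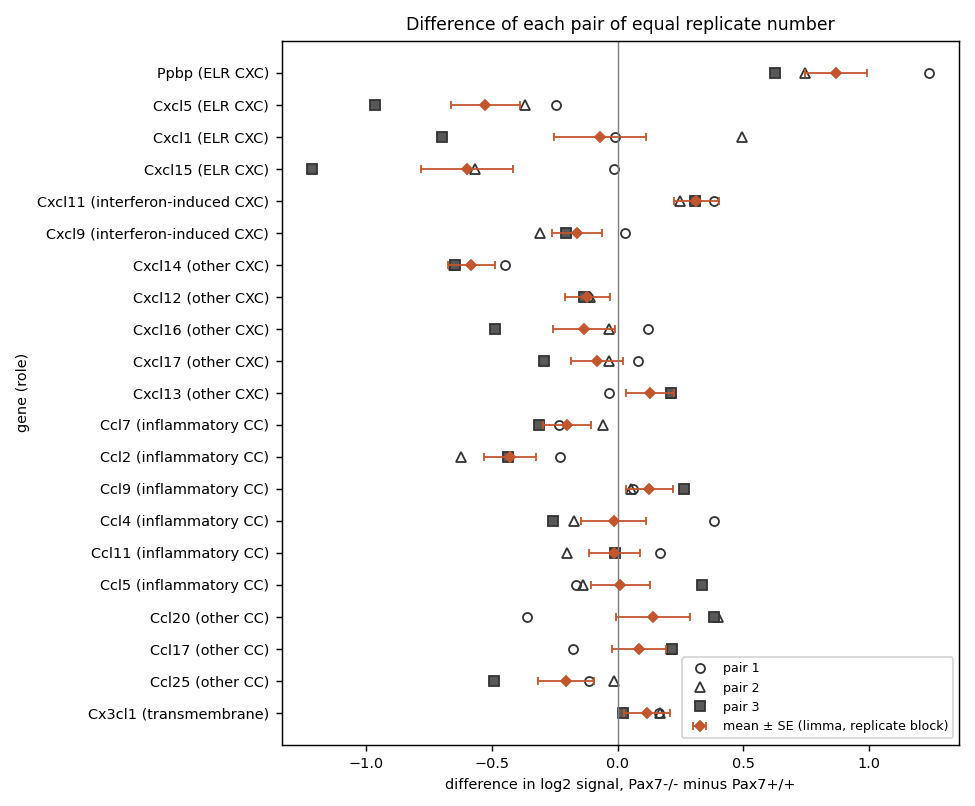
Difference in log2 signal, Pax7-/- minus Pax7+/+ (x axis), of each pair of equal replicate number for the 21 chemokine genes above background (y axis, with the role). Diamonds give the mean with the SE of limma's fit with the replicate block. Pair 3 (filled squares) lies furthest from 0 for Cxcl5, Cxcl15 and Cxcl1, and pair 1 for Ppbp.

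The CC genes with the clearest signal were Ccl2 and Ccl7, neighbours on chromosome 11. Ccl2, or MCP-1, draws monocytes through Ccr2. Its signal was 8.47, 8.63 and 9.63 in Pax7+/+ and 8.24, 8.01 and 9.19 in Pax7-/-. It was lower in each pair, by -0.23, -0.62 and -0.44 (mean -0.43, 1.35-fold lower, SE 0.10 with the block, limma adjusted p = 0.362), and did not pass in any fit. Ccl7, or MCP-3, a ligand of Ccr2 as well, had signals of 8.58, 8.49 and 9.44 against 8.35, 8.44 and 9.12, with pairs of -0.23, -0.06 and -0.32 and a mean of -0.20 (SE 0.10 with the block, adjusted p = 0.761). Ccl11, or eotaxin-1, which follows Ccl7 on the chromosome, was near background at 5.20 to 5.68 with a mean difference of -0.01. The next genes, Ccl12, Ccl8 and Ccl1, were below background on every array.
In the other cluster of chromosome 11, Ccl9 was above background on all arrays, at 6.24, 6.27 and 6.23 in Pax7+/+ and 6.30, 6.32 and 6.49 in Pax7-/-. It draws myeloid cells through Ccr1. Ccl9 and Ccl25, the latter near background on replicates 1 and 2, were the named genes without overlap between genotypes. Of all genes 1.41% had none, a share that includes genes at background, among which Cxcl3 also had none. Ccl9 was higher by only 0.13 (SE 0.09 with the block, limma adjusted p = 0.859), with 0.06, 0.05 and 0.26 in the pairs. As deposited its level was steady across replicates, while Ccl2 and Ccl7 stood higher on replicate 3 by 0.73 to 1.07 in either genotype. All genes above background had median shifts of 0.76 and 0.75 there. After quantile normalization of all arrays, Ccl9 had replicate 3 shifts of -0.50 in Pax7+/+ and -0.38 in Pax7-/-. Ccl7 was then at -0.07 and -0.34, and Ccl2 at 0.13 and -0.01. Ccl4 was at 4.63 to 6.07 with a mean difference of -0.02. Ccl5, or RANTES, lay at 5.04 to 5.41 over all arrays and was above background only on replicate 3, at 5.06 and 5.39. Its mean difference of 0.01 averages pairs of -0.17, -0.14 and 0.33, of which pairs 1 and 2 lie at background. Ccl3 and Ccl6 were not above background.
Markers of macrophages, a source of these CC genes in tissue, were read on the same arrays. Of 14, 6 were above background (C1qa, Cd68, Csf1r, Fcgr1, Laptm5 and Tyrobp). Ptprc was below the level on every array and Adgre1 on 4. The mean signal of the list was 4.82 to 5.19 over the Pax7+/+ arrays and 4.81 to 5.14 over the Pax7-/- arrays, and the median difference over all 14 was 0.02 (0.09 over the 6). With the block, Cd68, Fcgr1 and Tyrobp were at 0.21, 0.19 and -0.18, and their part in the CC signals was not tested.

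Of the remaining CC genes 3 of 9 were above background. Ccl20, a ligand of Ccr6, ranged from 5.32 to 6.30 with pairs of -0.36, 0.40 and 0.38. Its signal of 5.32 in Pax7+/+ replicate 2 lay just below the level of 5.34. Ccl25, a thymus and gut chemokine, lay at 5.09 to 5.59. On replicates 1 and 2 it was near background, and in knockout replicate 1 below the level. It was lower in each pair, by -0.11, -0.01 and -0.49, of which pairs 1 and 2 lie near background. The mean was -0.21 (SE 0.11 with the block, limma adjusted p = 0.792) and was -0.06 without replicate 3. Ccl17, a ligand of Ccr4, was above background in knockout replicate 2 by a small margin and on replicate 3 of both genotypes at 6.55 and 6.77, with 5.09 to 5.44 on the other arrays. Cx3cl1, or fractalkine, the membrane-bound ligand of Cx3cr1 and the neighbour of Ccl17, had signals of 5.90, 6.19 and 7.37 in Pax7+/+ and 6.06, 6.36 and 7.39 in Pax7-/-. It was higher in each pair by 0.16, 0.17 and 0.02 (mean 0.12, SE 0.09 with the block, adjusted p = 0.863 in limma).
The 14 genes not above background were Cxcl2, Cxcl3, Pf4, Cxcl10, Ccl3, Ccl8, Ccl12, Ccl6, Ccl22, Ccl26, Ccl28, Ccl27a, Ccl1 and Ccl24, with signals between 3.00 and 5.58 and a smallest adjusted p of 0.748 with the block in limma. No size is read from them. The Ccl19, Ccl21 and Ccl27b families had probe sets that name several genes, and these were not used here.

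Across replicates the chemokine genes did not move alike. In both genotypes 10 of the 21 genes were higher on replicate 3 than in the mean of replicates 1 and 2 (47.6%, against 66.0% of all genes above background), and 7 were lower. The median shift of the 21 was 0.08 in Pax7+/+ and 0.26 in Pax7-/-, against 0.76 and 0.75 for all genes above background. Ppbp had shifts of 2.27 and 1.91 in Pax7+/+ and Pax7-/-, Cxcl15 of 2.44 and 1.52, Ccl17 of 1.30 and 1.50, Cxcl12 of 1.24 and 1.22 and Ccl2 of 1.07 and 1.06. Cxcl11 lay at the other end, at -1.68 and -1.69, with Cxcl17 at -0.85 and -1.16.
Because replicate 3 had a wider distribution of signals (interquartile range of 2.52 to 2.56, against 1.88 to 1.94), the shifts were also read after quantile normalization of all arrays. Cxcl15 (1.92 and 1.41), Ppbp (1.26 and 1.01) and Ccl17 (1.04 and 1.17) kept shifts above 1 in both genotypes, whereas those of Cxcl12 (0.21 and 0.13) and Ccl2 (0.13 and -0.01) were small. Cxcl11 stayed at -1.58 and -1.68, and Cxcl16, which had shifts of -0.05 and -0.58 as deposited, was at -0.83 and -1.17. Cxcl1 had shifts of 1.22 in Pax7+/+ and 0.28 in Pax7-/- as deposited, and Cxcl5 of 1.38 and 0.72, with no test of the difference between genotypes. These are descriptions of 1 array per genotype and number, and nothing in the labels says how replicate 3 differed.

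**Figure D4:**
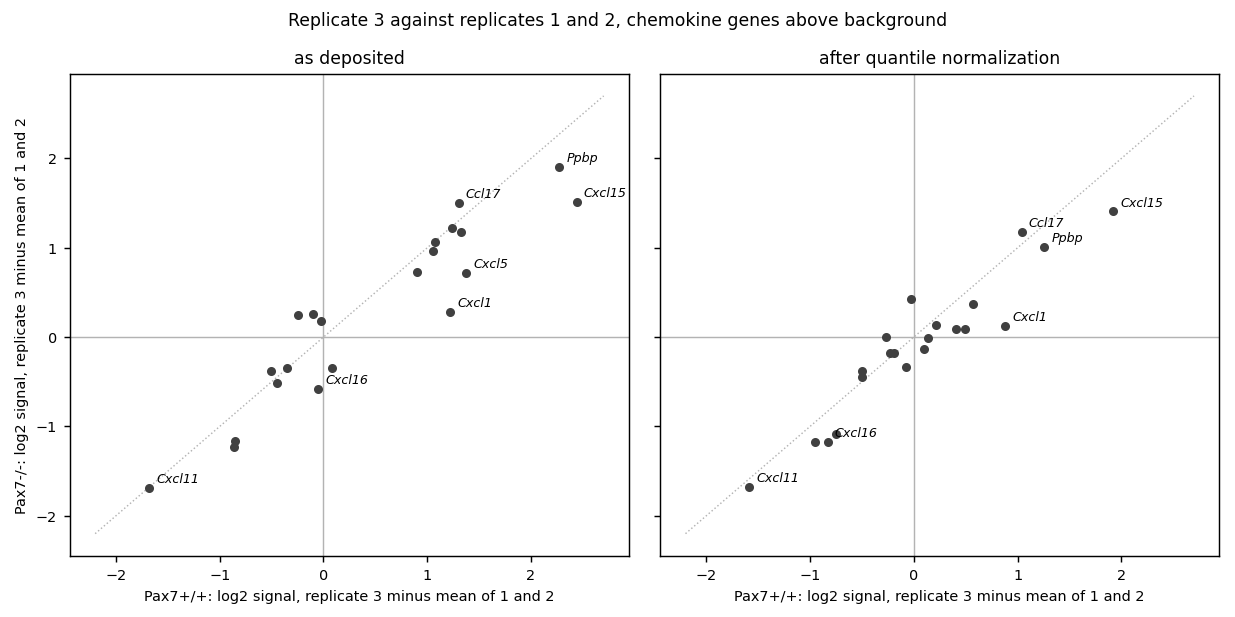
Replicate 3 minus the mean of replicates 1 and 2 in log2 signal, in Pax7+/+ (x axis) and in Pax7-/- (y axis), for the 21 chemokine genes above background, as deposited (left) and after quantile normalization (right). Points near the dotted line of equality shifted alike in both genotypes. Cxcl15, Ppbp and Ccl17 stand at the upper right in both panels and Cxcl11 at the lower left.

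The genes that receive the chemokines were mostly at background. Of 22 receptor genes measured, 7 were above background (Ackr2, Ackr3, Ccr7, Cx3cr1, Cxcr1, Cxcr3 and Cxcr4), and 0 passed in either direction in either limma fit, with a smallest adjusted p of 0.586 with the block. Ackr3, the scavenging receptor of Cxcl12, lay at 6.24 to 6.56 and differed by -0.12, and Cxcr4, its signalling receptor, by -0.08 (SE 0.11). Ccr7 and Cxcr3 were at 0.21 and 0.19 (SE 0.09 and 0.14, all with the block). Cxcr2, the receptor of Ppbp, Cxcl5 and Cxcl1, and Ccr2, that of Ccl2 and Ccl7, were not above background.
Of the genes of chemokine induction through interleukin-1, TNF and NF-kB, 39 were measured and 31 were above background. With the block 1 passed as lower, Il1r1, the signalling receptor of interleukin-1, and 0 as higher, while without it 0 passed. Of all genes 0.0676% passed as lower and 0.00902% as higher with the block. Il1r1 had signals of 6.59, 6.81 and 8.86 in Pax7+/+ and 5.72, 6.14 and 7.97 in Pax7-/-, and fell by 0.81 (SE 0.09, limma adjusted p = 0.0275 with the block). The blocked call was lost without replicate 2 (adjusted p = 0.117), without replicate 3 (adjusted p = 0.0850) and with replicates 1 and 2 as 1 batch (adjusted p = 0.0694), and held without replicate 1 (adjusted p = 0.00643 in limma). Interleukin-1 is a known inducer of Cxcl1, Cxcl5 and Ccl2 in fibroblasts, and a link between these genes and Il1r1 was not tested. The 31 genes above background had a median difference of -0.04, and 2 were higher and 4 lower in every pair. Among all genes above background 14.8% were higher and 15.3% lower. Nfkbiz, a nuclear cofactor of NF-kB, was at 0.33, the inhibitor Nfkbia at 0.13 and the subunit Rela at 0.03. Myd88 and Relb were at -0.25 and -0.14, each lower in every pair. These genes were chosen after their values were seen.
The 14 genes of the interferon route were all above background, and 0 passed in either direction in either fit. Their median difference was -0.03, with the receptor chains Ifngr1 and Ifngr2 at 0.24 and 0.26 and the kinase Jak2 at -0.17. Of 20 genes that trim chemokines or decay their mRNA, 13 were above background and 0 passed. Mmp2, a gelatinase that cleaves Cxcl12 and Ccl7, was higher in each pair, at 0.33, 0.24 and 0.24 (mean 0.27, SE 0.09 with the block, limma adjusted p = 0.607). The mRNA decay factor Zfp36l1 was at -0.26 and the cathepsin Ctsk at -0.22, and the 13 genes had a median of -0.05. Over all genes above background the median was -0.00.
Of the other marker lists none had a member past the threshold except the fibroblast list. Lymphocyte markers had 1 of 8 above background (Ncr1, difference 0.01), endothelial markers 3 of 12 (Cdh5 0.24, Egfl7 0.10 and Flt1 0.13) and epithelial markers 5 of 10 (with Cldn3 at 0.07, Krt19 at 0.14 and Krt8 at -0.05). Pluripotency markers had 5 of 12 above background, with a median difference of -0.09 over the 5. Dppa3 was at -0.09, Klf2 at -0.11 and Klf4 at -0.18. Pou5f1 and Lin28a, above background on all 6 arrays, were at 0.05 and -0.03. In the fibroblast list, Dcn (decorin) passed as lower with the block, at -1.93 (SE 0.12, limma adjusted p = 0.000578), as did 0.0676% of all genes. Of the 13 fibroblast genes 8 were lower and 1 (Fn1, fibronectin) higher in every pair, where 15.3% of all genes above background were lower and 14.8% higher, and the list had a median difference of -0.12. Postn (periostin) was at -0.43 and the collagen Col3a1 at -0.40 (blocked limma adjusted p of 0.214 and 0.432). Lum (lumican) was at -1.16 (adjusted p = 0.127 in the same limma fit) but above the level on replicate 3 only, where its pair was -1.95. The mean signal of the list was 9.14 to 9.90 over the Pax7+/+ arrays and 8.78 to 9.49 over the Pax7-/- arrays. Cxcl14, Ccl2 and Ccl7, at -0.58, -0.43 and -0.20, were lower in every pair on the same arrays, and the part of the fibroblast genes in these values was not tested.

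**Figure D5:**
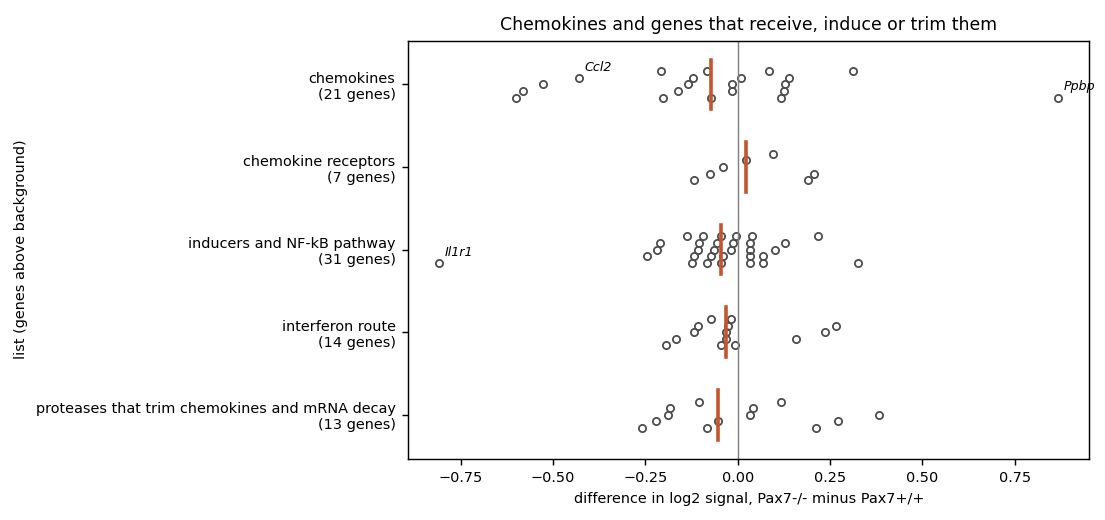
Difference in log2 signal, Pax7-/- minus Pax7+/+ (x axis), for the genes above background in each list (y axis), 1 circle per gene, with the list's median as a bar. The chemokines spread from -0.60 (Cxcl15) to 0.87 (Ppbp), and Il1r1 at -0.81 is the receptor or pathway gene furthest from 0.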

How the data were processed

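The deposited log2 values of 41345 probe sets on 6 arrays were made by the authors with Partek and RMA, per the submitters' processing notes. The sources used here give no version, parameter or build, and the log base was read from the values and the name RMA. Platform annotation gave 1 gene for 23521 probe sets. Each gene is its probe set with the highest mean. limma 3.58.1 in R 4.3.3 (lmFit, eBayes, two-sided, Benjamini-Hochberg over 22180 genes, threshold 0.05) compared the genotypes with genotype as the only term. The fit was tested on data simulated from these arrays with a shared effect of each replicate number. Because that effect was built in, the simulation cannot check whether a block by number is right. Deviations of equal-numbered arrays from their genotype's mean correlated at 0.920, 0.895 and 0.973, above the bound of 0.1, so a second fit had the number as a block. This pairing comes from the data, and replicates 1 and 2 of opposite genotype correlated at 0.910 and 0.898. As these crossed values cleared the bound too, it cannot tell a pairing of replicates 1 and 2 from the shared shift of replicate 3. Chemokines above background, and list members that passed a fit (if there was no such member, the 3 above background of smallest blocked p), were named with values. The chemokines, lists and background rule were chosen with earlier results of these data known. Other settings left out arrays or changed the block, normalization, filter, probe set rule, variance model or background level. For arrays, their number limits the precision.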

Additional observations from a re-analysis of the deposited data

How the results depend on the processing

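Without a block, 0 genes and 0 chemokine genes passed under quantile normalization, a median shift of arrays, a filter on genes above background, the mean of probe sets, or trend and robust estimation. Of all genes, 17 passed with the replicate block, 19 with replicates 1 and 2 as 1 batch, and 21 with the replicate block and quantile normalization, of which 1 was a chemokine gene (Ppbp). In blocked fits added after the data were seen, 34 passed with only genes above background (1 chemokine, Ppbp), 46 with trend and robust estimation (2 chemokines, Ppbp and Cxcl14) and 26 with a median shift (1, Ppbp). Leaving out arrays or replicate numbers gave 0 to 98 genes and 0 to 4 chemokines (Ppbp, Cxcl14, Cxcl5 and Cxcl15, all without replicate 1 in the blocked fit), and 1 gene without replicate 3 and without a block. Leaving out 1 array without a block gives the genotypes unequal shares of replicate 3. Chemokine genes above background numbered 9 at the 99th percentile, 13 if required on all arrays, and 30 at the 90th. Under quantile normalization, with and without the block, the differences were 0.080 for Cxcl1, 0.032 for Ccl4, 0.0022 for Ccl11 and -0.026 for Ccl5, of the opposite sign to those as deposited. Of the 21 named genes, 6 kept their sign in all 21 settings (Ppbp, Cxcl14, Ccl2, Cxcl5, Ccl25 and Ccl9). The other 15 changed sign when arrays were left out, with ranges of Ccl11 -0.13 to 0.10, Ccl17 -0.42 to 0.52, Ccl20 -0.088 to 0.40, Ccl4 -0.33 to 0.39, Ccl5 -0.15 to 0.11, Ccl7 -0.45 to 0.097, Cx3cl1 -0.28 to 0.56, Cxcl1 -0.35 to 0.34, Cxcl11 -0.25 to 0.88, Cxcl12 -0.53 to 0.29, Cxcl13 -0.038 to 0.26, Cxcl15 -1.13 to 0.21, Cxcl16 -0.30 to 0.059, Cxcl17 -0.37 to 0.31, Cxcl9 -0.35 to 0.008. In the blocked fits, signs also changed without replicate 3 for Cxcl1 (0.24), Cxcl16 (0.042), Cxcl17 (0.022), Ccl4 (0.104) and Ccl5 (-0.152), and without replicate 2 for Ccl4 (0.063) and Ccl11 (0.080). The cause was not tested.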
